A study of Mus musculus with 5 samples.

Results

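Primary follicle granulosa cells are the single sheet of cuboidal somatic cells around an oocyte that has left the resting pool. Here they were 1414 of 48163 cells in single-cell RNA-seq tables of mouse ovaries between 2 and 6 wk of age. They were selected on measured values, cell by cell. A cell had to show at least 1000 detected genes and a mitochondrial (mt-) share of its unique molecular identifiers (UMIs, which count captured RNA molecules) under 15%. It had to carry 1 or more UMIs of at least 4 of the 6 markers Kctd14, Wnt6, Hamp2, Gldn, Cited4 and Ifitm1, and at least 2 UMIs of Inha, the inhibin alpha subunit. At most 1 of Shbg, Pla2g1b and Lama3 could be detected, and Ube2c, a gene of mitosis, and Dcn, a stromal proteoglycan, had to be at 0.

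The ovaries came from untreated C57BL6/J mice at 2, 3, 4, 5 and 6 wk. They were dissociated with trypsin, live cells were sorted by flow cytometry, and 1 Chromium library was made at each age. The number of mice behind a library is not stated in the sources used here, and with 1 library at each age no difference between ages has a replicate check. The groups of cells compared within a library were chosen on the measured values of those cells, so their differences are a description. No p-value is given for these reasons, and every interval below is a 95% interval that covers counting error only. Intervals are exact, except that those of ratios between shares use a normal approximation on the log scale.

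In a primordial follicle a few flat pregranulosa cells surround the oocyte. On activation they become cuboidal, divide, lay down a basement membrane and start to secrete anti-Müllerian hormone (Amh), which restrains the recruitment of further follicles. WNT ligands of these cells signal to neighbouring granulosa and mesenchymal cells through frizzled receptors, and Axin2, Nkd1 and Rnf43 are feedback genes of that pathway. Secondary follicles add layers, and antral follicles respond to follicle-stimulating hormone and make activin, inhibin and estradiol.

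The promoters of 3 markers are shown as examples of the sequences before markers that define the cells, 2 with a GC box and 1 with a GATA match. The set of RefSeq (GRCm38.p6) promoters used here had an entry for 5 of the 6 markers, all but Kctd14. The 250 bases before each start were searched on both strands for 5 motifs: the NR5A site AAGGTCA, the GATA site AGATAA, the TCF/LEF site CTTTGAT, the FOX site TAAACA and the GC box GGGCGG. Matches are in capitals.
Wnt6, a WNT ligand, chr1:74771642-74771891, plus strand: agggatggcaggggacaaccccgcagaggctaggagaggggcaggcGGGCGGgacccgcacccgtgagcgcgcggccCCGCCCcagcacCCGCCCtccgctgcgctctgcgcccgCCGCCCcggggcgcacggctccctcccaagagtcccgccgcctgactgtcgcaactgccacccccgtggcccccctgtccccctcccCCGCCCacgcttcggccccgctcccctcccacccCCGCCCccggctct
Hamp2, a hepcidin family gene, chr7:30924182-30924431, minus strand: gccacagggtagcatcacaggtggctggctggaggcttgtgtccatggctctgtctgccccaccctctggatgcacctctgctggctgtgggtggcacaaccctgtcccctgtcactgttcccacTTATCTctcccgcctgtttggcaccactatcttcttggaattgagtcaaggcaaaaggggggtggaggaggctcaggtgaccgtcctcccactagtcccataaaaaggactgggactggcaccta
Cited4, a CBP/p300-binding coactivator, chr4:120666313-120666562, plus strand: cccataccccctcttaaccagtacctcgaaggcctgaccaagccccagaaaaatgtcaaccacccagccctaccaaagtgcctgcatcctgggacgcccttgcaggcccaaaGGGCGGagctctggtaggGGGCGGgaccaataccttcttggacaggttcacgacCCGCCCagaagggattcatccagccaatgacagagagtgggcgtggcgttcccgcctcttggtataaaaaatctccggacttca
The Wnt6 promoter, with a G and C content of 79.6%, held 6 GC boxes and the Cited4 promoter 3. A GC box was present in 32.7% of 32851 promoters of this length. The Hamp2 promoter held 1 GATA match, a motif present in 9.99% of the promoters. The promoters of Gldn and Ifitm1 held none of the 5 motifs, and no TCF/LEF match (3.21% of promoters) or NR5A match (4.08%) was present in any of the 5. These matches describe the letters and were not tested for use in the cells.

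The number of primary granulosa cells was highest at 2 wk and lowest at 5 wk. The libraries from 2 to 6 wk held 646, 291, 176, 120 and 181 of them, out of 9471, 9253, 11077, 7779 and 10583 cells. Among granulosa cells, taken as cells with at least 2 UMIs each of Inha and Nr5a2 and no Dcn or within one of the granulosa groups described or planned (2301, 2782, 3946, 1978 and 3023 cells), they made up 28.1% (95% interval 26.2 to 30.0) at 2 wk, 10.5% (9.35 to 11.7) at 3 wk, 4.46% (3.84 to 5.15) at 4 wk, 6.07% (5.06 to 7.21) at 5 wk and 5.99% (5.17 to 6.89) at 6 wk. The share at 2 wk was 6.29 times that at 4 wk (5.37 to 7.38) and 4.69 times that at 6 wk (4.01 to 5.48). These ratios moved with the rule, to 4.08 and 3.47 with 3 markers required, 11.0 and 5.87 with 5, and 7.48 and 7.09 with a mitochondrial share under 10%. Fewer of these cells, more other granulosa cells and unequal release on dissociation cannot be told apart in such shares, nor can fewer cells and age-bound loss of a marker.

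**Figure D1:**
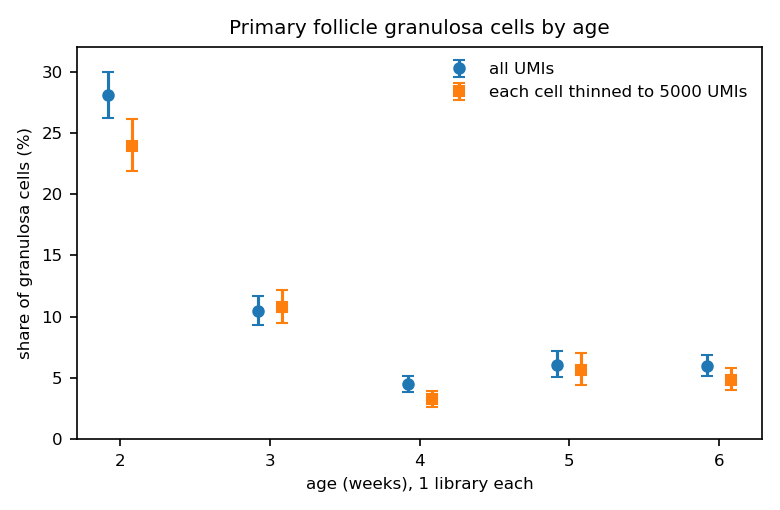
Share of granulosa cells (%) that met the rule for primary follicle granulosa cells at each age in weeks, with 1 library at each age. Circles use all UMIs and squares use cells thinned to 5000 UMIs each, with exact 95% binomial intervals; both series are highest at 2 wk and lowest at 4 wk.

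Depth bears on a rule that asks for detected genes. The median primary granulosa cell held 16921.5, 11870, 9827, 14391.5 and 15656 UMIs from 2 to 6 wk, so the 4 wk cells were the shallowest. When each cell was thinned to 5000 UMIs, 905 cells met the rule. Among granulosa cells of that depth their share was 24.0% (95% interval 21.9 to 26.1) at 2 wk and 10.8% (9.48 to 12.2) at 3 wk. It was 3.24% (2.63 to 3.95) at 4 wk, 5.61% (4.41 to 7.01) at 5 wk and 4.86% (4.02 to 5.80) at 6 wk. The order of 2, 3 and 4 wk was kept at equal depth, and the intervals of 5 and 6 wk overlapped with and without thinning. Of the 1414 cells, 771 carried exactly 4 markers, 532 carried 5 and 111 carried all 6. Just outside the limit were 1045 cells with exactly 3 markers that met every other criterion. Levels are given in CPM, the gene's share of all UMIs of the cells on the usual CPM scale. Amh, which the rule did not use, stood at 629, 966, 780.3, 533 and 488 CPM from 2 to 6 wk in the cells with exactly 4 markers and at 501, 832, 692, 292 and 313 CPM in those with exactly 3, lower in each library. Wnt4 was also lower with exactly 3 markers in each library. The younger libraries differed less for Igfbp5, at 898 CPM with exactly 4 against 881 with exactly 3 at 2 wk, and 468 against 463 at 3 wk. Gatm stood at 723 CPM with exactly 4 and 730 with exactly 3 at 2 wk, and was lower with exactly 3 at later ages. The limit on Inha decided little: 15 cells had 2 UMIs and 8 had 1. The limit on Shbg, Pla2g1b and Lama3 decided more, since 962 cells carried 1 of them and 736 cells that met every other criterion carried 2. The libraries shared 273 pairs of cell barcodes, none of them between primary granulosa cells, and a doublet caller marked 3 of 646, 2 of 291, 8 of 176, 0 of 120 and 5 of 181 cells.

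The level of a marker in cells chosen by it is set by the rule, so each marker was also measured in cells chosen without it. These cells carried at least 3 of the other 5 markers and met the remaining criteria, and cells with at most 1 of the other 5 served as the background. The 6 markers were higher in the first set in every library. That set held all 1414 primary cells each time, among 1435 cells for Kctd14 and up to 2434 for Hamp2. It was still chosen on other markers of the same cells, which favours a higher level, so these ratios are a description. Wnt6 stood at 262, 155, 141, 193 and 167 CPM from 2 to 6 wk against 64.0, 24.8, 11.8, 67.3 and 8.70 CPM, a ratio of 2.86 to 19.2. The smallest Wnt6 ratio was at 5 wk, where the background cells were highest. Gldn, which encodes gliomedin, stood at 66.8, 106, 77.9, 56.3 and 43.4 CPM against 4.62, 6.15, 2.66, 3.99 and 2.92 CPM, and Cited4 at 128, 192, 147, 123 and 118 CPM against 16.7 to 24.1 CPM. The 5 libraries of each set did not overlap for either gene.

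Hamp2 was the rarest of the 6, at 23.4, 11.3, 3.84, 9.97 and 13.2 CPM in cells chosen without it. The background was at 0 UMIs in the 4 wk library, which makes the ratio there at least 36.2 against a floor of 3 UMIs, and at 2 wk the ratio was 12.9 (6.21 to 32.3). Ifitm1, an interferon-induced transmembrane protein, was 4.50 to 15.4 times higher than in the background granulosa cells, but it was not particular to granulosa cells, since 71.6% of 14425 stromal cells carried a UMI of it. Kctd14 was present throughout the granulosa lineage: cells with at most 1 other marker held 1219.5, 645, 235, 231 and 286 CPM, and the ratio widened from 1.56 at 2 wk to 7.30 at 5 wk as that background became lower.

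**Figure D2:**
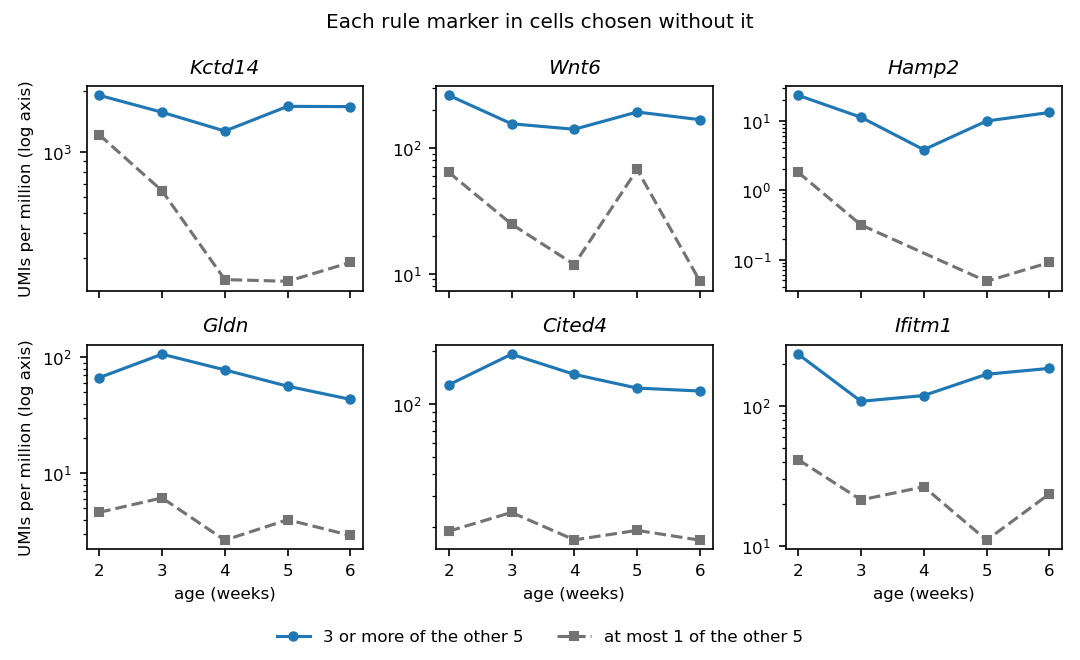
Level of each of the 6 rule markers (CPM, log axis) by age in weeks, in cells that carried 3 or more of the other 5 markers (circles) and in cells with at most 1 of the other 5 (squares). Circles lie above squares in all 5 libraries for each gene; the Hamp2 background at 4 wk is 0 UMIs and is not drawn.

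Foxl2, Nr5a2 and Amh, granulosa genes that the rule did not use, were detected in most of the cells. Foxl2, the transcription factor that maintains granulosa fate, stood at 494, 248, 255, 326 and 334 CPM from 2 to 6 wk, and Nr5a2, a nuclear receptor of granulosa cells, at 281, 351, 307, 318 and 369.6 CPM. Foxl2 was highest at 2 wk, whereas Nr5a2 was lowest there and varied less. Foxl2 was carried by 92.9% of the cells but also by 64.8% of 14425 stromal cells, whereas Nr5a2 was carried by 90.8% and 13.6%. Amh stood at 704, 993, 821, 555 and 477 CPM and was carried by 95.4% of the cells, against 10.7% of 392 blood cells that should lack it (median depths 15041.5 and 8471 UMIs), with its highest level at 3 wk and its lowest at 6 wk. The receptor of Amh, Amhr2, stood at 411, 419, 561, 426 and 424 CPM. Kitl, the ligand for the KIT receptor of the oocyte, stood at 247, 306, 176, 247 and 231 CPM, and Ihh and Dhh, hedgehog ligands that signal to theca precursors, at 69.6, 90.6, 105, 77.1 and 103 CPM and 39.9, 43.7, 49.5, 56.5 and 52.3 CPM.

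Some genes of the gonadotropin-dependent stages were near the limit of detection and others were not. Fshr, the receptor of follicle-stimulating hormone, stood at 3.53, 2.44, 1.63, 0.554 and 2.65 CPM, Lhcgr, the receptor of luteinizing hormone, at 0.618, 0.543, 0.543, 0 and 0.331 CPM, and Cyp19a1, aromatase, at 2.92, 1.36, 0.543, 1.66 and 6.96 CPM. The 16 genes of gonadotropin response and steroid synthesis together reached 1646, 1692, 1809, 1661 and 2038 CPM, led by the cyclin Ccnd2, and among them Hsd17b1, which makes estradiol from estrone, stood at 80.8, 37.4, 59.2, 106 and 171 CPM. The cell-cycle gene Mki67 ranged from 1.66 to 13.3 CPM, in a set from which the rule had left out 275 cells that met every other criterion but carried Ube2c.

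Markers of other cell types were present at different levels. None of 1414 cells carried a UMI of Ddx4, a germ cell helicase, which allows up to 0.261% of cells with a UMI (exact interval) and sets no limit on cells that express it. The 12 oocyte markers summed to 3.36, 2.44, 2.72, 1.11 and 1.32 CPM. Ddx4, Zp2, Bmp15, Oosp1 and Dppa3 were at 0 in all 5 libraries. The 8 stromal markers summed to 136, 124, 182, 69.3 and 105 CPM, led by Mgp, with Lum at 1.33, 1.63, 3.26, 0.554 and 1.66 CPM. At least 2 of the 8 were detected in 240 of 646 cells at 2 wk, 53 of 291 at 3 wk, 38 of 176 at 4 wk, 11 of 120 at 5 wk and 39 of 181 at 6 wk, so the share was highest at 2 wk and lowest at 5 wk. The 6 surface epithelium markers summed to 69.4, 64.6, 61.4, 43.8 and 44.4 CPM, led by Lgals7, a galectin, against 15.7, 21.1, 31.1, 4.22 and 7.35 CPM in cells with 2 or more of Shbg, Pla2g1b and Lama3 and few markers, described below as the Shbg group. This sum was thus higher in primary cells in each library. At least 2 of the 6 markers were detected in only 4, 1, 0, 0 and 2 primary cells from 2 to 6 wk. The 8 endothelial markers summed to 21.9, 22.5, 19.6, 13.3 and 14.9 CPM, led by Egfl7. Markers of blood were concentrated in few cells: at 5 wk 2 cells held 253 of the 254 UMIs of the 7 blood markers, and at 3 wk 2 cells held 103 of 108. The 5 smooth muscle markers, led by Acta2, summed to 39.7, 38.0, 168, 15.5 and 129 CPM. At 4 and 6 wk 2 cells held 218 of 310 and 287 of 389 of their UMIs. At 2, 3 and 5 wk they were spread over more cells, with 69 of 449, 9 of 140 and 6 of 28 UMIs in the top 2 cells, and Acta2 was carried by 173 of 646 cells at 2 wk. The part of such RNA in the results below was not tested, other than by leaving out called doublets.

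Expression varied within a library. At 2 wk the middle 80% of cells carried from 9 to 61 Kctd14 UMIs, 8 to 52.5 Inha UMIs, 2 to 25 Amh UMIs and 1 to 27.5 Gatm UMIs, with medians of 30, 23, 10 and 8. Igfbp5, an IGF-binding protein, ranged more widely, from 0.5 to 34 UMIs with a median of 11. Gja1, the main connexin of granulosa gap junctions, stood in the cells with exactly 4 markers at 297, 415, 468, 354 and 493 CPM, and in those with 5 at 250, 309, 309, 427 and 354 CPM. It was thus higher in the cells with 4 markers in every library except 5 wk. Itga6, an integrin subunit that binds laminin, went the other way, at 704, 534, 362, 562 and 489 CPM with exactly 4 markers and 742, 668, 548, 691 and 646 CPM with 5.

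To place the cells among granulosa cells, they were compared with 3 other groups, library by library. The first carried 2 or more of Shbg, Pla2g1b and Lama3, at least 2 Inha UMIs and at most 2 of the 6 markers, and is called the Shbg group (167, 357, 116, 65 and 108 cells). The second, antral-like cells, carried Tdrd5, at least 2 of Fst, Nap1l5 and Inhba, at least 2 Inha UMIs and at most 2 of the 6 markers (83, 311, 1116, 540 and 950 cells). Both lacked Ube2c and Dcn, as the primary cells did. The third, Amh-low cells, carried at least 2 Gatm UMIs, Foxl2 and Kctd14, at most 1 Amh UMI and at most 10 Inha UMIs, and no Slc18a2, Lum, Dcn or Ube2c (68, 39, 8, 16 and 4 cells). Cells that met the rule were left out of all 3 groups, but no marker limit applied to the Amh-low cells, and 8 of their 135 carried 4 or more of the 6 markers. UMIs were summed over the cells of a group in each library. A gene was called where its ratio was at least 2, or at most 0.5, in each library used. Genes were compared if they held at least 200 UMIs over both groups together. A gene could reach this only through the group where it was high, and the minimum then favours the direction of its ratio. Where a gene is said not to overlap between groups, the share of all genes without overlap is not given. Such a statement only describes the values of that gene. Only the 2 and 3 wk libraries held 20 or more Amh-low cells, so that comparison rests on 2 libraries. The Shbg and Amh-low groups were defined after the data had been seen.

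**Figure D3:**
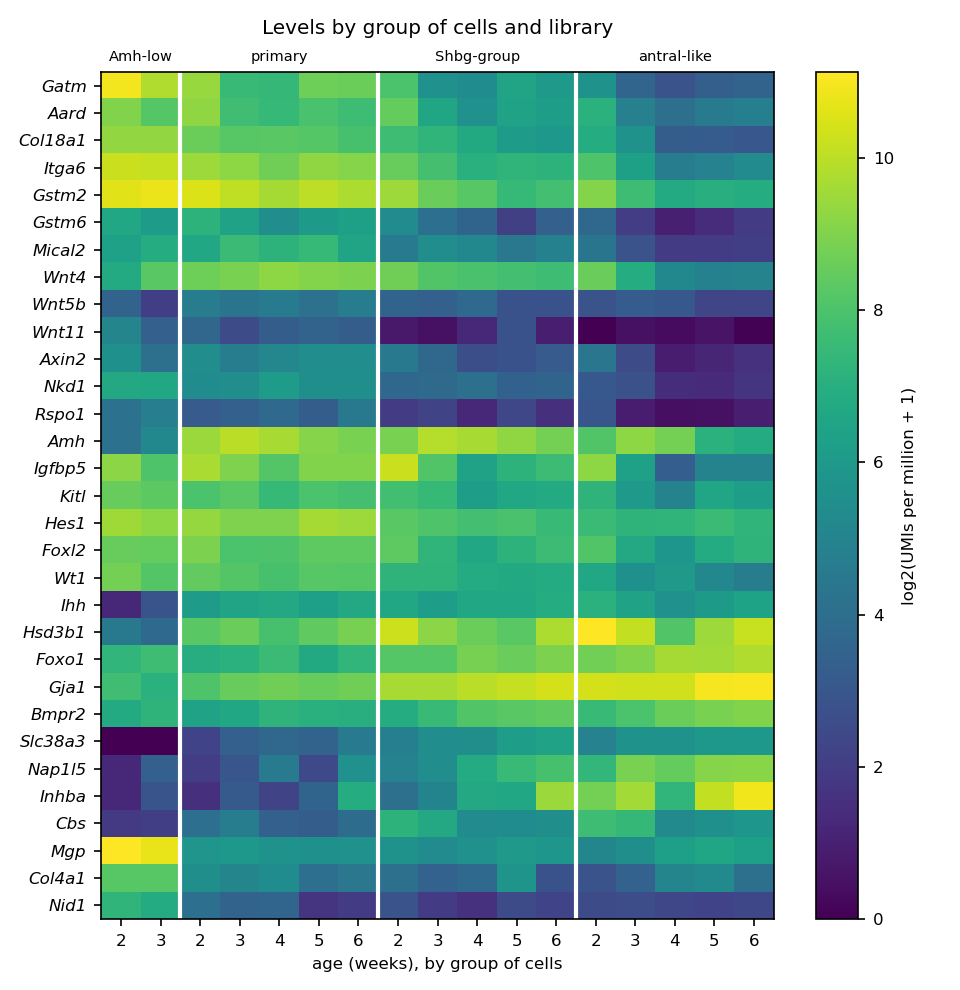
Level of 31 genes, as log2(CPM + 1), in the summed cells of 4 granulosa groups, with 1 column for each library (age in weeks). Gatm, Itga6, Nkd1 and Axin2 are brighter in the primary column than in the Shbg-group and antral-like columns of the same age, and Gja1 and Foxo1 are dimmer; Nap1l5, used to choose antral-like cells, is dimmer than in the Shbg group.

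Against the Shbg group, 69 of 9406 genes (0.734%) were at least 2-fold higher in primary granulosa cells in all 5 libraries and 33 (0.351%) at least 2-fold lower. After thinning to 5000 UMIs 5 and 2 genes passed, with fewer UMIs and fewer cells behind each ratio, and without the limit on Ube2c 132 and 21 passed. With 3 markers required 40 and 7 passed. The higher genes included Gatm, the first enzyme of creatine synthesis, at 682, 188, 170.1, 405 and 399 CPM against 254, 47.9, 41.3, 90.3 and 63.4 CPM. Primary granulosa cells lay above the Shbg group at each age, by 2.68 to 6.29-fold, although the 3 and 4 wk primary cells were below the 2 wk Shbg-group cells. The heparan sulfate sulfotransferases Hs3st3a1 and Hs3st3b1 were 4.60 to 9.63-fold and 3.25 to 11.2-fold higher. Hs3st3a1 held to 11.1, 10.9, 13.0, 11.6 and 10.6 CPM, a narrow range over 5 ages, against 2.09, 1.64, 1.35, 2.53 and 1.38 CPM. Rpp25, a subunit of RNase P, was 4.60 to 20.2-fold higher, the sorting receptor Sorcs2 3.55 to 20.9-fold, the cadherin Cdh12 3.58 to 14.2-fold and the uncharacterized Gm31659 at least 3.72-fold. Hs3st3a1 reached the UMI minimum only through primary cells, where it was high, so the minimum favours its higher ratio. This may hold for other genes named here as higher.

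Gstm6, a glutathione S-transferase, stood at 144, 84.4, 42.4, 66.0 and 78.8 CPM against 40.5, 15.8, 10.8, 3.37 and 9.64 CPM, and Gstm2 at 1469, 1054, 779.9, 1028 and 874 CPM against 722, 383, 305, 174 and 222 CPM. Neither overlapped between the groups, and both belong to a family of close copies, among which reads can be divided. Wfdc1, of the WAP-domain protease inhibitor family, stood at 22.3, 8.68, 14.7, 10.5 and 9.27 CPM against 2.44, 1.43, 0.677, 0 and 0.919 CPM. It was at 0 in the Shbg group at 5 wk, where the ratio is at least 4.16. Wfdc1 reached the UMI minimum only through primary cells, where it was high, so the minimum favours its higher ratio.

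Among the lower genes, Nap1l5, an imprinted nucleosome assembly gene, stood at 3.00, 6.78, 22.8, 4.43 and 48.4 CPM against 30.0, 42.8, 113, 184 and 235 CPM, and Inhba, the activin A subunit, at 1.94, 7.87, 3.80, 11.1 and 116 CPM against 16.4, 31.5, 103, 99.5 and 692 CPM. Both were lower than in the Shbg group at each age but overlapped across ages, since the 6 wk primary cells stood above those of the other ages. At 6 wk 27 of 181 primary cells carried 351 Inhba UMIs, 201 of them in 2 cells, and 34 carried 146 Nap1l5 UMIs, 74 of them in 2 cells. For Inhba, blood cells of that library stood at 501 CPM. The part of RNA from other cells in the 6 wk values was not tested. The glutamine transporters Slc38a3 and Slc38a5 had ratios of 0.140 to 0.275 and 0.0343 to 0.331, Cbs, which makes cystathionine from homocysteine, 0.109 to 0.310, the potassium channel Kcnq5 0.165 to 0.292, the phosphodiesterase Pde7b 0.225 to 0.348 and the secreted factor Ccdc3 0.159 to 0.254.

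Ratios of the WNT response genes were mostly above 1. Of 9 WNT ligands listed besides Wnt6, 3 held enough UMIs to be tested and none was called. Their median log2 ratio was 1.24 against 0.08 for all genes tested. Wnt4, needed for ovarian differentiation, stood at 411, 470.4, 601, 532 and 480.3 CPM in primary cells and 415, 277, 242, 224 and 202 CPM in the Shbg group. At 2 wk the ratio was 0.991, with an interval that includes 1, and at 6 wk it was 2.38 (95% interval 2.13 to 2.65). Wnt4 in the Shbg group was lower at each later age, while in primary cells it was lowest at 2 wk. Wnt5b was 1.82 to 4.27-fold higher. Wnt11 stood at 11.8, 4.88, 8.70, 10.5 and 8.61 CPM against 0.698, 0.410, 1.35, 5.90 and 0.919 CPM, higher in all 5 libraries but less than 2-fold at 5 wk.

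Of 7 WNT response genes tested, Nkd1 and Rspo1 were called higher and none lower, beside 0.734% of all 9406 genes called higher and 0.351% lower. Above 1 in all 5 libraries were 6 of the 7, as were 2048 (21.8%) of the 9406 genes, and the median log2 ratio was 1.41. Nkd1, an inhibitor of dishevelled, stood at 41.5, 42.9, 70.1, 46.0 and 45.7 CPM against 12.2, 13.5, 16.2, 10.1 and 11.0 CPM, and Axin2, the standard reporter of the pathway, at 43.1, 24.4, 34.2, 42.7 and 43.4 CPM against 21.6, 12.1, 5.42, 5.90 and 8.27 CPM. Neither gene overlapped between the groups, but the share of all 9406 genes without overlap is not given. Axin2 missed the call only at 2 wk, with a ratio of 1.99 (95% interval 1.53 to 2.64). Rspo1, a secreted enhancer of WNT signalling, was 2.10 to 11.9-fold higher. The 8 receptors and co-receptors tested had a median log2 ratio of 0.06, and none was called.

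**Figure D4:**
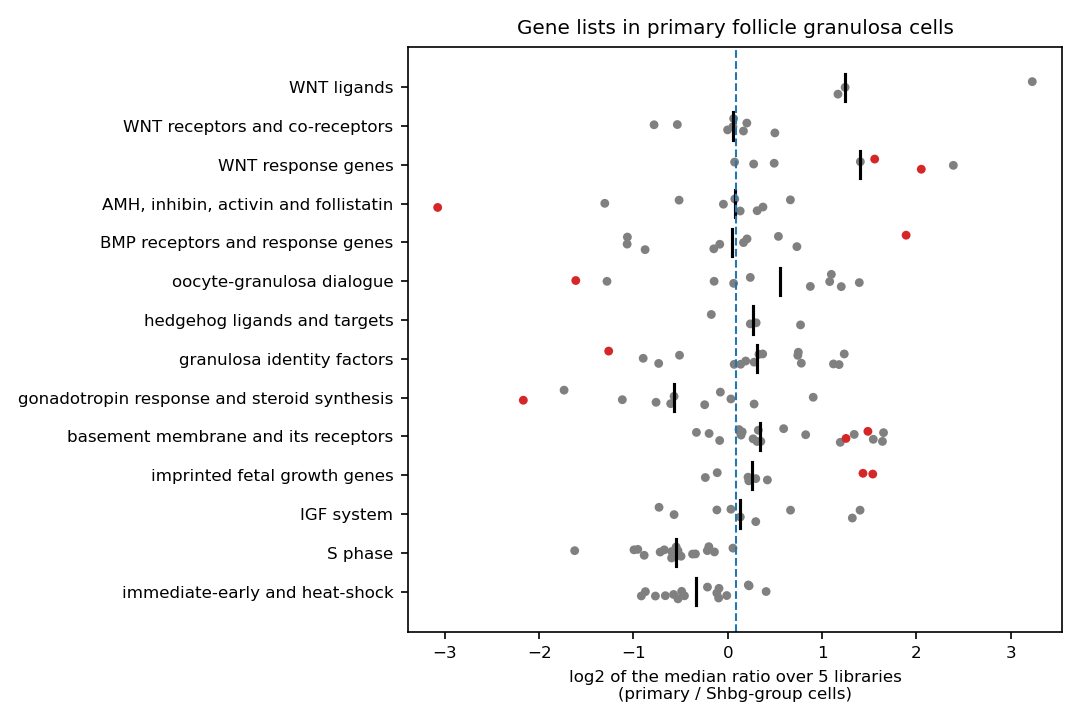
Log2 of the median ratio over 5 libraries of primary granulosa cells to Shbg-group cells for each tested gene of 14 lists. Red points passed 2-fold in all 5 libraries, black bars are list medians and the dashed line is the median of all 9406 genes (0.08). The medians of WNT ligands and response genes lie at 1.24 and 1.41. Those of S phase and of gonadotropin response and steroid synthesis lie below 0. The ligand median rests on 3 genes, of which Wnt11 passed the UMI minimum through primary cells alone.

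The list counts below against the Shbg group stand beside the 0.734% of all 9406 genes called higher and 0.351% called lower. Of 11 gonadotropin response and steroid synthesis genes tested, only Grb14, an insulin receptor adaptor, was called lower, none was called higher, and the median log2 ratio was -0.57. Grb14 stood at 25.4, 26.6, 97.3, 37.7 and 37.8 CPM against 92.8, 60.8, 437, 362 and 273 CPM, lower at each age although the 4 wk primary value lay above the 2 and 3 wk values of the Shbg group. Hsd3b1, a 3-beta-hydroxysteroid dehydrogenase, stood at 308, 385, 235, 337 and 452 CPM against 1244, 586, 399, 305 and 872 CPM and overlapped between the groups. Among 16 granulosa identity factors tested, Foxo1, a forkhead factor restrained by insulin signalling, was called lower at 123, 137, 193, 107 and 157 CPM against 288, 288, 464, 386 and 489 CPM, and none was called higher. Gja1, at 268, 370.3, 421, 374 and 425 CPM against 822, 809.5, 1017, 1142 and 1359 CPM with no overlap, was the only one called of 10 genes of the oocyte-granulosa dialogue. Hes1, a NOTCH target, stood at 650.1, 503, 508, 793 and 728 CPM against 314, 267, 221, 246 and 185 CPM, which did not overlap.

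Of 20 basement membrane genes and receptors, 2 were called higher and none lower. Sparc, a collagen-binding matrix protein, stood at 407, 362, 417, 258 and 267 CPM against 190.1, 129, 118, 118 and 77.6 CPM, with no overlap, and Bcam, a laminin receptor, was 2.07 to 2.71-fold higher. Itga6 was 1.96 to 4.03-fold higher, just short of the call at 2 wk. Of 8 imprinted growth genes tested, H19, a noncoding RNA, and Peg3, a zinc finger gene, were called higher, by 2.05 to 19.5-fold and 2.37 to 8.15-fold, while Nap1l5, also imprinted, was lower. Among 10 BMP genes only Msx1, a homeobox target of BMP signalling, was called, 2.25 to 4.59-fold higher. Apart from the lower Inhba, none of 9 AMH, inhibin, activin and follistatin genes was called, and Amh itself stood at 469.9, 943, 804, 628 and 451 CPM in the Shbg group, which overlapped with primary cells. Of 6 iron handling genes tested, none was called, and Slc40a1, the iron exporter that hepcidin binds in liver and gut, stood at 94.2, 167, 138, 123 and 105 CPM against 48.8, 103, 68.4, 56.5 and 47.3 CPM.

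The 17 S phase genes tested had a median log2 ratio of -0.55, with 10 below 1 in all 5 libraries, as were 930 (9.89%) of the 9406 genes, and none called. The 16 immediate-early and heat-shock genes had a median of -0.34, with none called. A list of 21 genes that lead both primary clusters had 6 called higher (Gstm2, Espn, Gatm, Cntn4, Mical2 and Sparc) and none lower. That list was chosen on these same samples and is not independent evidence of the direction.

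Against antral-like cells, 218 of 10743 genes (2.03%) were at least 2-fold higher and 150 (1.4%) at least 2-fold lower in all 5 libraries. Thinned to 5000 UMIs, 114 and 94 genes passed. With 3 markers required 95 were lower, and without the 2 wk library 248 were. Gatm led the higher genes, by 13.0 to 42.8-fold, with antral-like cells at 52.3, 11.5, 6.16, 9.44 and 10.8 CPM. Tgfbr3l, a co-receptor of inhibin B, was 11.9 to 21.9-fold higher, Gstm6 11.8 to 43.4-fold, the noncoding RNA E330013P04Rik 9.83 to 57.1-fold and Tmem215, a membrane protein, at least 10.3-fold. The lowest were Lrrtm3, a synaptic adhesion protein, at ratios of 0.0310 to 0.105, Mgarp, a mitochondrial protein of steroid-making cells, at 0.0320 to 0.116, Slc38a5 at 0.00913 to 0.116 and Psd, an exchange factor, at 0.0195 to 0.104. Rgs13, a regulator of G protein signalling, stood at 1.15, 1.09, 0.543, 0 and 3.64 CPM against 13.6, 9.06, 21.8, 36.7 and 39.7 CPM. Rgs13 and Mgarp reached the UMI minimum only through antral-like cells, where they were high, so the minimum favours their lower ratios.

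List counts against antral-like cells stand beside the 2.03% of all 10743 genes called higher and 1.4% called lower. Of 15 gonadotropin and steroid genes tested, 4 were called lower (Fshr, Cyp19a1, Hsd17b1 and Grb14) and none higher. The median log2 ratio was -1.42 against 0.08 for all genes. Fshr held 40, 9, 3, 1 and 8 UMIs in primary cells from 2 to 6 wk, and Cyp19a1 33, 5, 1, 3 and 21. Both reached the UMI minimum only through antral-like cells, which favours their lower calls, and the median includes them. Hsd17b1 and Grb14 reached it in primary cells alone. Hsd17b1 stood at 543, 230.1, 147, 498 and 647 CPM in antral-like cells, above primary cells at each age. Axin2, Nkd1 and Rnf43 were called higher among 7 WNT response genes, with a median of 2.73. Among 3 ligands tested, Wnt5b and Wnt11 were called higher. Wnt11 passed the UMI minimum through primary cells alone, where it was high, so the minimum favours its higher call. Lgals7 was the 1 surface epithelium marker tested and was called higher as well, by 4.82 to 11.0-fold. Wnt4 in antral-like cells was 380.2, 118, 35.8, 28.6 and 30.2 CPM, so the ratio to it was 1.08 (95% interval 0.991 to 1.18) at 2 wk and 15.9 (95% interval 14.4 to 17.6) at 6 wk. Among 13 BMP genes, Bmpr1b and Bmpr2, receptors of BMP ligands, were called lower, at ratios of 0.267 to 0.331 and 0.238 to 0.461, and Msx1 was called higher. Among 16 identity factors, Wt1 and Emx2, factors of the early gonad, were called higher, by 3.63 to 11.5-fold and 2.46 to 7.15-fold, and Foxo1 was called lower.

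Against Amh-low cells at 2 and 3 wk, 221 of 7622 genes (2.9%) were at least 2-fold higher and 354 (4.64%) at least 2-fold lower. These shares rest on 2 libraries and are not comparable with those over 5. Other scalings moved the median log2 ratio of all genes from 0.02 to between 0.15 and 0.21 and turned the balance of calls. They gave 316 higher and 260 lower (TMM), 294 and 281 (DESeq2 size factors), and 344 and 248 (totals without mt-, Rpl and Rps genes). Thinned to 5000 UMIs, 35 and 97 genes passed, and 142 and 221 with the UMI minimum doubled. Without a minimum 1460 were lower, and without the 2 wk library, which leaves a single library, 168 were. Ihh was among the higher genes, at 1.34 and 6.45 CPM in Amh-low cells. Its ratio was 52.1 (95% interval 9.33 to 2061) at 2 wk and 14.1 (95% interval 3.86 to 117) at 3 wk, wide intervals that follow from few UMIs in Amh-low cells. Hsd3b1 was 14.4 to 29.9-fold higher, Ptgis, prostacyclin synthase, 16.9 to 25.2-fold, the proteoglycan Vcan 11.3 to 35.0-fold, the kinesin Kif21a 13.0 to 14.8-fold, the HMG-box factor Tox2 9.55 to 42.1-fold, Pln, phospholamban, 9.42 to 13.3-fold and Jsrp1, a protein of muscle membranes, 9.35 to 10.8-fold. Nr5a2 was called higher as well, at 81.5 and 70.9 CPM in Amh-low cells at 2 and 3 wk. Ihh, Hsd3b1 and Nr5a2 reached the UMI minimum only through primary cells, where they were high, so the minimum favours their higher ratios. The Amh-low cells were few, so this may hold for the other genes called higher against them.

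Among the lower genes, Mgp, a matrix Gla protein, stood at 2235 and 1721 CPM in Amh-low cells at 2 and 3 wk and at 55.0, 60.5, 52.2, 46.6 and 48.7 CPM in primary cells. Ifi204, an interferon-activated gene with close copies, had ratios of 0.0166 to 0.0317, the small heat shock protein Hspb1 0.0166 to 0.0360, Cald1, caldesmon, 0.0462 to 0.0518, the factor Cebpd 0.0405 in both libraries, Retreg1, a receptor for turnover of endoplasmic reticulum, 0.0296 to 0.0439, Pdzd2 0.0210 to 0.0486 and Angptl6, an angiopoietin-like protein, 0.0561 to 0.0680. Of 16 basement membrane genes, 8 were called lower (Col4a1, Col4a2, Col4a4, Lamb1, Lamc1, Nid1, Sparc and Bcam), none was called higher, and the median log2 ratio was -1.21 against 0.02 for all genes. Col4a1, a chain of collagen IV, stood at 301 and 303 CPM in Amh-low cells and 45.8, 32.6, 41.3, 15.5 and 20.2 CPM in primary cells.

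The list counts against Amh-low cells stand beside the 2.9% of all genes called higher and 4.64% lower, a balance that turned under the other scalings. Id1, Id2 and Id3, targets of BMP signalling, were called lower among 10 BMP genes. Among 9 dialogue genes, the NOTCH pathway genes Notch1, Hey1 and Heyl were called lower and Npr2 was called higher. Of 3 cyclin D and CDK inhibitor genes tested, the cyclin Ccnd3 and Cdkn1b, a brake on the cell cycle, were called lower. Cdkn1b stood at 66.8, 74.3, 64.7, 60.4 and 57.0 CPM against 255 and 161 CPM at 2 and 3 wk. Mcm2, Mcm3, Mcm7 and Hells were called higher among 16 S phase genes. Of 14 immediate-early and heat-shock genes, 10 were called lower and none higher, with a median log2 ratio of -1.68. The stromal genes Col1a2, Col3a1 and Mgp were also called lower among 4 tested, and whether stromal RNA in the Amh-low cells has a part in these values was not tested. Of 5 WNT response genes tested, Nkd1 and Bambi were called lower and none higher. Amh-low cells were shallower than primary cells, at median depths of 11011 and 8098 UMIs at 2 and 3 wk.

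A group with Gatm and 2 or more of Shbg, Pla2g1b and Lama3, meant to hold primordial follicle cells and planned before the Shbg group was added, held 1361 cells of which 683 carried 4 or more of the 6 markers. Their Wnt6 stood at 208, 127, 110.3, 135 and 153 CPM, so the group overlapped primary granulosa cells in the markers themselves. Of 9947 genes, 0 were called higher (0%) and 0 lower (0%) against them, from ratios with no test. The most separated genes were Krt79, AI467606, Hs3st3a1, Clstn2, Tmsb4x, Fgfbp3, Mmp2 and Gstm6 on the higher side, where Krt79, a keratin, had ratios of 1.47 to 1.88, and Pde7b, Kcnq5, Slc38a3, Cdc42ep3, Cnmd, Slc25a35, Ccdc3 and Hs3st1 on the lower side.

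Between ages, the cells of 5 and 6 wk were compared with those of 2 wk. At least 2-fold higher at both ages were 56 of 9337 genes (0.6%), and 65 (0.696%) were at least 2-fold lower. These counts moved with the settings, to 16 and 20 after thinning to 5000 UMIs, 144 and 105 with 3 markers required, and 519 and 177 with no minimum of UMIs. The 2 ratios share the 2 wk library. The first 3 libraries were counted with Cell Ranger 3.1.0 and those of 5 and 6 wk with 6.0.1, per the file headers, so age, library and software cannot be told apart. The same ratios were therefore read in the stromal cells of these libraries.

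AY036118, Gm42418 and Lars2 were among the genes with the highest ratios in both. Gm42418 and AY036118 are known to collect reads of ribosomal RNA, and Lars2 is a mitochondrial leucyl-tRNA synthetase. AY036118 had ratios of 18.1 and 14.8 at 5 and 6 wk in primary cells and 11.6 and 16.3 in stromal cells. Gm42418 had ratios of 14.0 and 7.52 in primary and 8.22 and 6.58 in stromal cells, and Lars2 of 7.45 and 5.90 and 6.15 and 5.55. AC160336.1 was lower in both, at 0.180 and 0.202 and 0.0404 and 0.0596, as was Amd2, a close copy of a polyamine synthesis gene, at 0.129 and 0.143 and 0.0677 and 0.0897.

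The other named genes varied in how far primary cells and stroma differed. Spry1, a feedback inhibitor of receptor tyrosine kinases, stood at 13.9, 0.814, 0.543, 0.554 and 0.994 CPM from 2 to 6 wk. It was carried by 83 of 646 cells at 2 wk and by 3, 1, 1 and 3 cells in the later libraries, so the later libraries were all low. Its ratios to 2 wk at 5 and 6 wk were 1.24 and 1.86 in stroma, 0.110 and 0.120 in the Shbg group and 0.415 and 0.230 in the other granulosa cells. Col8a1, a short-chain collagen, stood at 19.3, 8.14, 1.63, 1.11 and 1.66 CPM, lower with each age to 5 wk, with ratios of 0.0576 (95% interval 0.00693 to 0.210) at 5 wk and 0.0860 (0.0276 to 0.204) at 6 wk. In stroma its ratios were 0.392 and 0.411. Nid1, nidogen, a linker of laminin and collagen IV, stood at 15.9, 10.6, 11.4, 2.22 and 2.98 CPM, with stromal ratios of 0.852 and 0.818. The tubulin Tubb2b stood at 8.39, 6.78, 3.26, 1.66 and 1.66 CPM, the potassium channel Kcnb2 at 8.48, 5.70, 4.89, 1.11 and 0.994 CPM and the imprinted gene Zdbf2 at 27.7, 23.3, 16.8, 4.43 and 3.64 CPM. Kcnb2 and Zdbf2 were also lower in stroma, by ratios of 0.348 and 0.216 and 0.305 and 0.0982, while Tubb2b had stromal ratios of 2.69 and 0.552.

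On the higher side, Grik3, a kainate receptor subunit, stood at 3.27, 5.97, 13.6, 28.3 and 27.8 CPM, with ratios of 8.65 (95% interval 5.55 to 13.6) at 5 wk and 8.51 (5.72 to 12.9) at 6 wk and no cell above 4 UMIs. Its ratios were 2.64 and 2.03 in the Shbg group, 1.10 and 1.56 in the other granulosa cells and 0.952 and 2.75 in stroma. Thbs4, a thrombospondin, stood at 2.30, 5.43, 25.0, 22.7 and 38.8 CPM, with ratios of 9.89 and 16.9 at 5 and 6 wk against 21.4 and 17.4 in the other granulosa cells. Gpx3, a secreted glutathione peroxidase, stood at 8.30, 21.7, 33.2, 40.5 and 57.0 CPM, higher at each successive age, although 2 cells held 35 of its 73 UMIs at 5 wk and 79 of 172 at 6 wk. Its ratios were 4.87 and 6.86 against 9.24 and 6.28 in the other granulosa cells and 1.32 and 1.31 in stroma. Mpped2, a metallophosphoesterase, had ratios of 4.44 and 6.33 in primary cells and 5.04 and 11.8 in stroma. Inhba had ratios of 5.70 and 59.8 in primary cells, 6.07 and 42.2 in the Shbg group, 8.13 and 15.6 in the other granulosa cells and 5.01 and 11.7 in stroma, and 2 primary cells held 15 of its 20 UMIs at 5 wk.

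**Figure D5:**
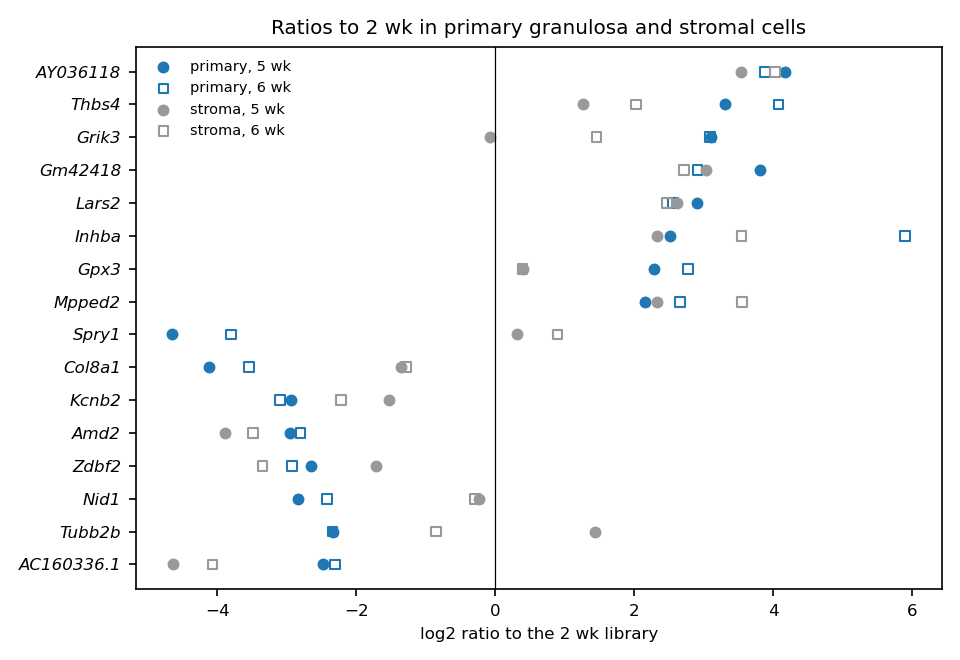
Log2 ratio to the 2 wk library for the 8 genes with the highest and the 8 with the lowest ratios in primary granulosa cells, at 5 wk (circles) and 6 wk (squares), beside the same ratios in stromal cells (grey). Stromal points lie beside the primary points for AY036118, Gm42418 and Lars2, and apart from them for Spry1, Nid1, Gpx3 and Col8a1.

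Some genes were lowest or highest in the middle of the series. Gatm, given above, had its lowest values at 3 and 4 wk. Igfbp5 was lowest at 4 wk, at 827, 500.3, 279, 510.0 and 519.7 CPM from 2 to 6 wk. Of the rule's markers, each read in cells chosen without it as given above, Hamp2 was lowest at 4 wk, and Gldn and Cited4 were highest at 3 wk. Cited2, a relative of Cited4, stood at 102, 358, 480.4, 176 and 193 CPM, highest at 4 wk. Primary cells were shallowest at 4 wk, and the part of depth in these courses was not tested. Wnt4 differed by less than 1.5 times over the ages, whereas Wnt6 in cells chosen without it, given above, was highest at 2 wk and lowest at 4 wk.

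By lists, 1 of 9 AMH, inhibin, activin and follistatin genes (Inhba) was called higher at 5 and 6 wk, and Igf1 was the gene called higher among 9 IGF system genes, at 33.9, 73.0, 142, 93.7 and 78.2 CPM. Igf1 was also the 1 gene called of 10 in the gonadotropin response and steroid synthesis list. Hey1, a NOTCH target, was called lower among 10 dialogue genes, at 20.1, 9.50, 3.80, 4.43 and 7.29 CPM. Of the 21 genes that lead both primary clusters, a list chosen on these same samples, only Aard was called, lower at 626, 207, 174, 247 and 205 CPM, and 15 were below 1 at both ages. H19 and Meg3, maternally expressed noncoding RNAs, were called higher among 8 imprinted genes. Col4a1 and Nid1 were called lower among 18 basement membrane genes and Cdt1 among 16 S phase genes, beside 0.6% of all 9337 genes called higher and 0.696% lower. Below 1 at both ages were 12 of the 16 S phase genes and 3155 (33.8%) of all genes, and above 1 at both were 2981 (31.9%). Of 16 immediate-early and heat-shock genes, 14 were above 1 at both ages, with a median log2 ratio of 0.66 against -0.01 for all genes, and only Hspa1b was called. At 2, 5 and 6 wk the list summed to 6077, 10146 and 7881 CPM in primary cells and 8422, 12592 and 7723 CPM in the Shbg group. It summed to 8765, 12258 and 8632 CPM in antral-like cells and 16166, 23726 and 16780 CPM in stromal cells. A higher sum at 5 wk was thus not particular to primary cells, although blood cells stood at 12110, 12065 and 13627 CPM. All 5 stromal genes tested were below 1 at both ages, with a median of -1.51 and none called. None of 7 WNT response genes, 10 BMP genes, 16 identity factors or 9 interferon-induced genes was called in either direction.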

How the data were processed

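Ovaries of C57BL6/J mice were profiled by droplet single-cell RNA-seq, with 1 library at each of 2, 3, 4, 5 and 6 wk. The deposited matrices hold UMI counts for 31053 genes, which the authors made with Cell Ranger (3.1.0 at 2 to 4 wk and 6.0.1 at 5 and 6 wk, per the file headers). The submitters' processing notes name Cell Ranger 3.1.0, Seurat 4.1.0 and the build mm10. Library totals were 124938004, 93438618, 117666094, 107071492 and 144609431 UMIs.

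Cells were selected by the rule from these counts. UMIs were summed per library and group and divided by the summed total (CPM). Genes with at least 200 UMIs in a comparison (100 between ages), summed over its cells, were compared by ratio. A ratio against 0 UMIs uses a floor of 3 UMIs. Blood cells carried at least 3 of Ptprc, Laptm5, Tyrobp, Cd52, Fcer1g and Coro1a, and stromal cells at least 2 Dcn UMIs and 2 of Lum, Mmp2 and Mfap4. Intervals are exact (Poisson, binomial or conditional for ratios of UMIs) except those of ratios between shares (log-normal), and no p-value was computed. Doublets were called with Scrublet in scanpy 1.11.5. Scalings came from edgeR 4.0.16 and DESeq2 1.42.0 under R 4.3.3, the rest from Python 3.11.15 with numpy 2.4.6 and scipy 1.17.1. The calculation was tested on simulated data.

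The members and gene lists were chosen with earlier results of these data known. Genes named were all rule and list genes, plus, for each comparison, the 8 with the highest lowest ratio and the 8 with the lowest highest ratio (5 and 5 for antral-like cells), leaving out mt-, Rpl, Rps and selection genes. Other genes named were chosen after their values were seen. The Shbg-group and Amh-low comparisons were added after the planned groups had been seen. One planned comparison, with secondary-like cells, is not reported here. The alternatives changed the marker number, Inha, Shbg, Pla2g1b and Lama3, Ube2c, the limits on cells, doublets, depth, scaling, the UMI minimum and the libraries used.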

Additional observations from a re-analysis of the deposited data

How the results depend on the processing

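Of 230 recomputed values 182 stayed within the spread set for them, and no ratio of shares crossed 1. Requiring 3 markers gave 2459 cells and 2 wk shares 4.08 times the 4 wk and 3.47 times the 6 wk share. Calls (higher, lower) were then 40 and 7 against the Shbg group and 144 and 105 between ages, with 95 lower against antral-like cells. Requiring 5 gave 643 cells, share ratios of 11.0 (2 over 4 wk), 1.88 (6 over 4 wk) and 5.87 (2 over 6 wk), 3 genes lower against primordial-like cells and 31 higher with age. Without the limit on Shbg, Pla2g1b and Lama3 there were 2244 cells, a share at 2 wk 3.84 times that at 6 wk, 8 and 3 calls against primordial-like cells and 89 genes higher with age. Without the limit on Ube2c, 132 and 21 genes passed against the Shbg group, 72 higher against primordial-like cells and 114 higher with age. With a mitochondrial share under 10% the share ratios were 7.48, 1.06 and 7.09.

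Thinned to 5000 UMIs, 905 cells met the rule, the 2 wk share was 7.38 times the 4 wk share, and fewer genes reached the minimum. Calls were then 5 and 2 (Shbg group), 35 and 97 (Amh-low), 114 and 94 (antral-like) and 16 and 20 (ages). Against Amh-low cells, totals without mt-, Rpl and Rps genes gave 344 and 248, TMM 316 and 260 and DESeq2 size factors 294 and 281, so that more genes were higher than lower under each, the opposite of 221 and 354. With no UMI minimum, 1460 were lower against Amh-low cells, and 519 higher and 177 lower with age. With it doubled the counts were 142 and 221 (Amh-low) and 31 and 39 (ages).

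Leaving out each library in turn gave 73 to 82 higher and 33 to 40 lower against the Shbg group, 177 to 326 and 168 to 464 against Amh-low cells, 208 to 293 and 139 to 248 against antral-like cells, and 0 higher and 0 to 2 lower against primordial-like cells. The 248 lower genes against antral-like cells were without the 2 wk library, as were the 168 against Amh-low cells. Causes of these shifts were not tested beyond the fewer cells, libraries or genes used. The groups were compared within each library, so these ratios are paired by library, but no paired test was run. The groups were chosen on the measured values of the same cells, and each age has 1 library.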
